A study of Mus musculus with 4 samples.

Results

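RNA of B220 cells from the spleens of mice that lack the transcription factor Mef2c (knockout, KO) was set against RNA of the same population from C57BL/6 mice (wild type, WT). The comparison consists of the arrays labelled as spleen KO and spleen WT, 1 per genotype, and 19426 of the 27727 genes or names on the array design were measured on at least 1 of them. B220 is the form of the surface phosphatase CD45 that marks the B lineage. The mice were naive, the cells were taken without culture, RNA was isolated with a Qiagen RNeasy kit, labelled with Cy3 and hybridised to Agilent 1-colour arrays, and a bone marrow pair of the same genotypes was run on another slide. Not given in the sources used here are how many animals each array stands for, how old they were, their sex, how the cells were isolated, the strain background of the KO, any Cre driver and the deleted stretch of Mef2c. With 1 array a side, every value below describes those arrays, with no replicate check and no p-value, and their number limits the precision. The KO array lay at position 1 and the WT array at position 2 of the slide, so genotype and position on the slide cannot be told apart.

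Mef2c is a MADS-box factor that binds A/T-rich sites in DNA. Class IIa histone deacetylases hold it inactive, and p38 MAP kinase, downstream of the B cell receptor, activates it. Mef2c is known for a part in the proliferation and survival of B cells after receptor stimulation. Most B cells of the spleen are follicular cells, which recirculate and present antigen on MHC class II molecules, and a smaller population sits in the marginal zone beside the red pulp, where macrophages clear old red cells.

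A level below is the log2 signal of a probe minus the 75th percentile of that array, and a difference is the level on the KO array minus that on the WT array, so that 1 means 2-fold. A gene is represented by the brightest of its probes. Where the probe was well above background on 1 array only, the difference is a bound, taken from whichever is higher on the dim array of the probe's own level and the lowest level that passed there, and written as "at least N-fold". Gene lists are described by counts of members at least 2-fold apart and by their median, beside the same over all measured genes. Signals at the 75th percentile were 520 on the KO array and 970 on the WT array, and the share of gene spots well above background was 59.3% and 69.1%.

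Mef2c itself was measured by 2 probes that disagreed. At the probe on chr13:83802754-83802813 (build mm9, plus strand) the level was 4.51 on the KO array and 3.14 on the WT array, a difference of 1.37. At the probe farther 5', on chr13:83717123-83717182, it was -2.02 on the KO array and -1.42 on the WT array, a difference of -0.61. The transcript was therefore detected on the KO array at both places, higher at the 3' probe and lower at the 5' probe. Whether either probe lies in the deleted part is not known, so these levels check no label. In the marrow the same probes differed by 0.32 and 0.36.

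Over all measured genes, 3889 (20%) were higher on the KO array by 2-fold or more and 2747 (14.1%) lower by as much, 34.2% in all, and the median difference was 0.10. The higher group included 266 bounds and the lower group 685. Counts of list members below are to be read beside these shares of all genes, 20% higher and 14.1% lower. Among 5258 genes with 2 or more probes well above background on both arrays, the probes of 2648 (50.4%) lay within 1 log2 unit of each other, against 87.4% in the marrow, and those genes are called agreeing below. For 347 genes, 1 probe was at least 2-fold higher and another at least 2-fold lower, against 13 in the marrow. Of the agreeing genes, 382 (14.4%) had all probes at least 2-fold higher and 196 (7.4%) all probes at least 2-fold lower.

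Differences moved with the position, base composition and brightness of the probe. In 5016 genes with 2 or more separated probes, the probe nearest the 3' end gave a difference higher by a median of 0.52 than the probe nearest the 5' end, against 0.17 in the marrow. That gap was 0.25 for probes 60 to under 500 genomic bases apart and 0.81 for those 5000 or more apart. The median difference was 0.53 for probes under 40% GC and -0.04 for those of 55% and over. With genes put in 4 classes of equal size by brightness, it was 0.76 in the brightest class, of which 37.7% were at least 2-fold higher, and 0.13 in the dimmest. These are measured features of the pair of arrays, and their part in the results below was not tested beyond the alternatives named there. Agilent's spike-in control probes read 2.33 higher on the KO array after the same scaling (median of 8 probes, from 1.56 to 2.58).

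**Figure D1:**
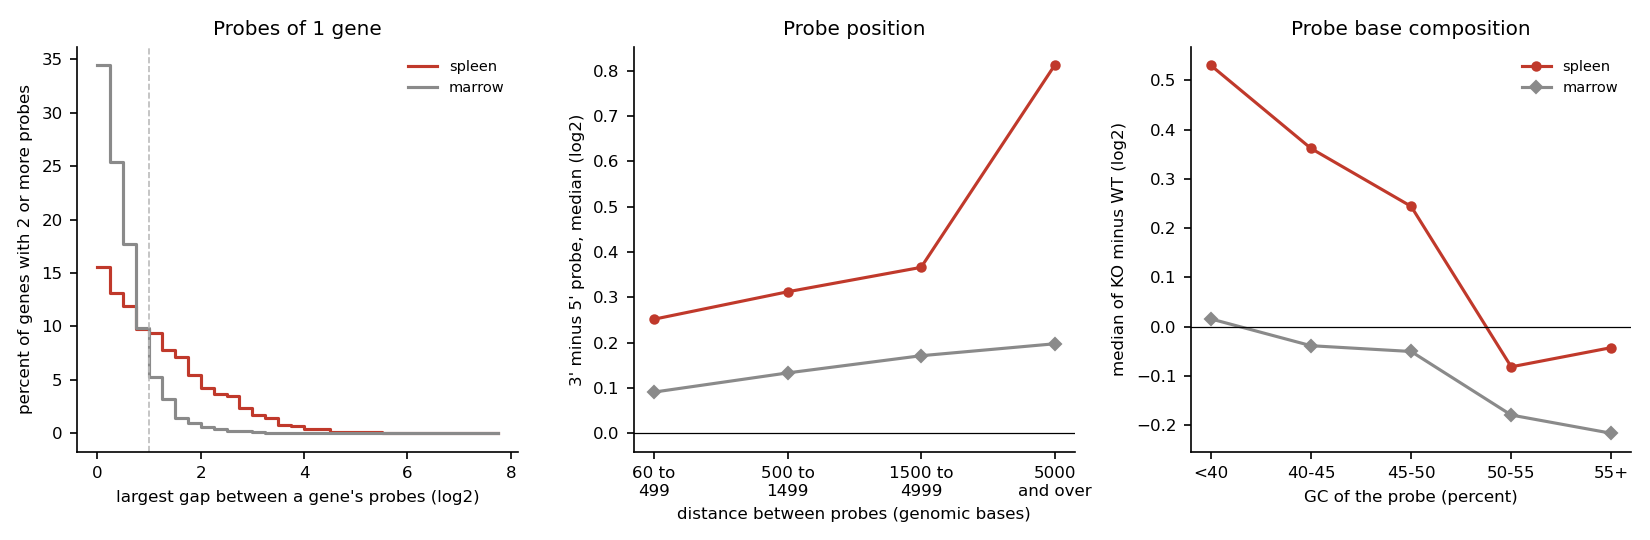
Left: share of genes by the largest gap between the differences of their probes (log2, the dashed line marks the limit for agreement). Middle: median of the 3' probe's difference minus the 5' probe's, by genomic distance between them. Right: median difference by GC content of the probe; the spleen (red) runs from 0.53 to -0.04 and the marrow (grey) from 0.02 to -0.22.

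Of the other Mef2 genes, Mef2a and Mef2d also had probes that disagreed, while those of Mef2b lay within the limit for agreement. At its brightest probe Mef2b had levels of 3.74 on the KO array and 3.51 on the WT array, a difference of 0.23. Its 3 probes gave from -0.55 to 0.23. Mef2a gave differences from -1.75 to 1.20 over 3 probes, and Mef2d from -1.20 to 1.24 over 3 probes. The sign therefore depended on the probe for all 3 genes. Taking the median of all probes, the differences of Mef2a and Mef2d were -1.43 and -0.74. Among the factors that act on Mef2 proteins, 3 had agreeing probes that were lower on the KO array. Hdac7, a class IIa deacetylase that represses Mef2 targets, had levels of 0.66 and 3.03, a difference of -2.37. Map2k5, the kinase that activates Erk5, stood at -3.19 and -0.98, a difference of -2.21, and the acetyltransferase Ep300 at -0.86 and 0.65, a difference of -1.51. Of the 15 list members, 4 were at least 2-fold higher and 3 lower, and the median of 0.24 changed sign to -0.13 under cyclic loess and to -0.39 with the median over probes.

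Heat shock genes were the list with the highest median. Of 23 measured members, 14 were at least 2-fold higher on the KO array and 2 lower, and the median was 1.50 against 0.10 over all genes. Hspa1a, the inducible Hsp70 chaperone (brightest probe at chr17:35106766-35106825, build mm9, minus strand), had a level of 2.75 on the KO array and -4.50 on the WT array, a difference of 7.25 or 153-fold, and its second probe, which overlaps the first, gave 6.80. Its near-identical neighbour Hspa1b stood at 0.70 on the KO array and was not well above background on the WT array, where its probe read -5.45, so that it was at least 70.9-fold higher. The signals of such copies cannot be told apart with certainty by hybridisation. In the marrow the differences were -0.79 for Hspa1a and -0.998 for Hspa1b.

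The co-chaperones and the other chaperone classes lay on the same side. Dnaja1, a DnaJ partner of Hsp70, had levels of 6.18 and 3.14, and its 3 probes gave from 2.35 to 3.04. Hsp90aa1, the inducible cytosolic Hsp90, had levels of 7.21 and 4.19, a difference of 3.02 from 1 probe. Hsph1, the Hsp110 exchange factor, stood at 4.76 and 1.90, a difference of 2.85. Dnajb4 differed by 2.18, the mitochondrial chaperonin Hspd1 by 1.68 and its partner Hspe1 by 1.62. The constitutive Hspa8 differed by 1.50 and Dnajb1 by 1.50, each with agreeing probes. Not every member was higher. Hsf1, the factor that drives these genes, differed by 0.07 and the co-chaperone Stip1 by 0.01. Hspa2, an Hsp70 gene outside the stress response, differed by -1.08, and the small chaperone Hspb1 was at least 3.52-fold lower. In the marrow 1 of 25 measured members was at least 2-fold higher, with a median of -0.18. The median fell below 2-fold, to 0.70 under quantile and 0.58 under cyclic loess normalization and to 0.87 with the median over probes, and it stayed above that of all genes under each of those.

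The stretches upstream of the start of these genes are shown for 4 high members that hold the motif below, while Hspd1, Dnajb1 and Dnajb4 hold none in this window. The stretches are the last 150 bases before the first-listed start of the gene, from RefSeq on build GRCm38.p6, with each match to TTCNNGAA or GAANNTTC, a short form of the heat shock element, in capitals on the strand shown. In Hspe1 the 3 matches overlap.
Hspa1a (chr17:34972157-34972306, minus strand): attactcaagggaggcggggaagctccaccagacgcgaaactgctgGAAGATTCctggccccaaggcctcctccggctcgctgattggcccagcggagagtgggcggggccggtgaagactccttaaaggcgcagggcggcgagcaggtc
Dnaja1 (chr4:40722318-40722467, plus strand): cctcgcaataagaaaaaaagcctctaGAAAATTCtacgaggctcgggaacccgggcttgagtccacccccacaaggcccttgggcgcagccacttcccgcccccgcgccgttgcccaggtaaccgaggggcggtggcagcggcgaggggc
Hsph1 (chr5:149636337-149636486, minus strand): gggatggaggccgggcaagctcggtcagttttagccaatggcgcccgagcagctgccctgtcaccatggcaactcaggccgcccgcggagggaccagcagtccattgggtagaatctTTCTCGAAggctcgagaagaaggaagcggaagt
Hspe1 (chr1:55087998-55088147, plus strand): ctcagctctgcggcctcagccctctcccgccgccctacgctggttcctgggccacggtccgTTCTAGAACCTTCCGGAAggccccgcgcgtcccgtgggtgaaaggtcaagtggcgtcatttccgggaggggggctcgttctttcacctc
Hspa1a holds its match 104 bases upstream of the start, Dnaja1 at 124, Hsph1 at 33, and Hspe1 from 89. Such a match stood in the same window of 31.6% of the 19 heat shock genes with an entry, of 7.81% of all 27025 genes and of 6.23% of the 305 agreeing higher genes with an entry. It also stood in 3 of the 12 class II genes with an entry, a list that lay lower. A match is a feature of the sequence and shows no binding.

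MHC class II genes went the other way. Of 17 measured members, 10 were lower on the KO array by 2-fold or more and 1 higher, with a median of -1.11, and the 3 members that agreed over their probes and were 2-fold apart were all lower. Ciita, the master coactivator of class II transcription, had a level of 0.67 on the KO array and 4.79 on the WT array, a difference of -4.12 from 1 probe. Rfx5, a subunit of the RFX complex that Ciita joins at class II promoters, stood at -1.93 and 0.01, a difference of -1.93, whereas its partners Rfxank and Rfxap differed by -0.06 and 0.71. The RFX subunits thus did not move as a group.

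The listed chains of the antigen-presenting molecules were lower. H2-Aa, an alpha chain, had levels of 4.70 and 6.39, a difference of -1.69 with agreeing probes, and its beta chain partner H2-Ab1 stood at 6.95 and 8.09, with probes from -3.9 to -1.14. H2-Eb1 had levels of 4.77 and 6.18, a difference of -1.41, and H2-Eb2 of -2.39 and -0.23, a difference of -2.16. Cd74, the invariant chain, differed by -1.11. The peptide-loading chains H2-DMa and H2-DMb2 differed by -1.87 and -2.16, and H2-Oa, which restrains them, by -1.11 with agreeing probes. The other chains of these pairs, H2-DMb1 and H2-Ob, differed by -0.29 and -0.69, less than 2-fold. Ctss, the protease that trims the invariant chain, was the member that was higher, with levels of 8.81 and 7.19. The marrow pair gave a median of -1.45, with 11 of 17 at least 2-fold lower. In the spleen it was -0.69 with scaling to the median of the array, which raised every difference by 0.42, and -0.82 with a correction for probe GC.

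The upstream stretches of class II genes are shown with the Y box, the letters ATTGG or CCAAT that the factor NF-Y is known to bind beside the RFX site, in capitals on the strand shown. Window and build are as above.
H2-Aa (chr17:34287824-34287973, minus strand): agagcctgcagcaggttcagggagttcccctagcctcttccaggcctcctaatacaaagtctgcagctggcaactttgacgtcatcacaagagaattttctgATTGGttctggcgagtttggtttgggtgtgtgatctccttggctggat
H2-Eb1 (chr17:34305717-34305866, plus strand): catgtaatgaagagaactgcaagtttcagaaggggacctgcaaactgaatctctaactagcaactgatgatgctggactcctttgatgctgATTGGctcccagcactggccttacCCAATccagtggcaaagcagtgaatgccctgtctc
H2-Eb2 (chr17:34325525-34325674, plus strand): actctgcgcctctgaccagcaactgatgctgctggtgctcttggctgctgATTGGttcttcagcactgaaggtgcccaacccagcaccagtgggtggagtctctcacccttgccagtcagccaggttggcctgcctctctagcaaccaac
H2-Oa (chr17:34092229-34092378, plus strand): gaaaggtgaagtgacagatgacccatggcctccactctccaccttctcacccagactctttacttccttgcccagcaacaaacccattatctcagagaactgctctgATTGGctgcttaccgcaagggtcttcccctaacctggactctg
The Y box lies 48 bases upstream of the start in H2-Aa, 59 and 35 in H2-Eb1, 100 in H2-Eb2 and 43 in H2-Oa. It stood in this window of 9 of the 12 class II genes with an entry, against 25.3% of all 27025 genes and 28.9% of the 305 agreeing higher genes, and 29.8% of the 151 agreeing lower genes. The site bound by Mef2 factors, searched on both strands, was found in 1.71% of all genes in this window and in none of the 12 class II and 19 heat shock genes with an entry.

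**Figure D2:**
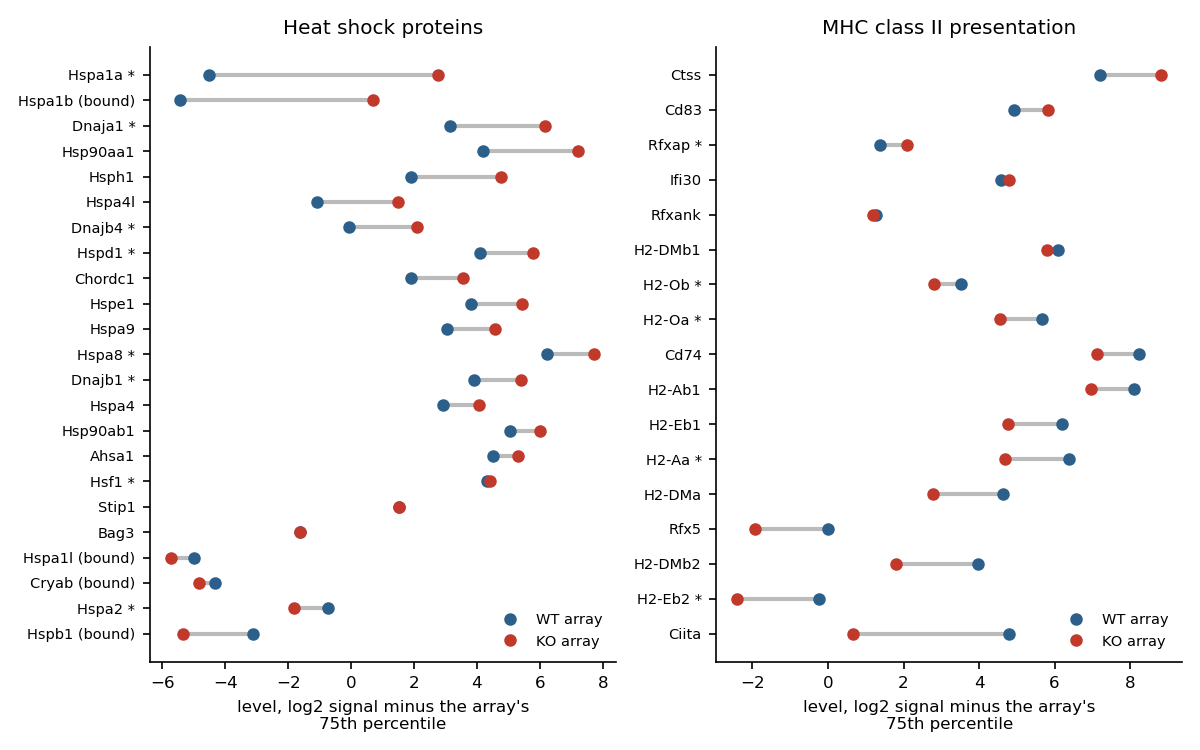
Level on the KO array (red) and the WT array (blue) for each measured gene, log2 signal minus the array's 75th percentile, with genes in order of their difference. An asterisk marks agreeing probes, and (bound) a gene below background on 1 array. Hspa1a reads 2.75 against -4.50 at the top of the left panel, and Ciita 0.67 against 4.79 at the foot of the right one.

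B cell identity was checked by the receptor and its co-receptors, all 14 of which were well above background on both arrays, and 2 were at least 2-fold higher and 3 lower, and the median was 0.05. Cd79b, a receptor signalling chain, had levels of 8.60 on the KO array and 8.36 on the WT array. The other chain, Cd79a, had levels of 0.17 and 2.63, a difference of -2.46 from 1 probe. Cd22, an inhibitory lectin of the B cell surface, stood at 2.81 and 5.05, a difference of -2.24 with agreeing probes, and it differed by -2.43 in the marrow. Fcgr2b, the inhibitory receptor for antibody, had 4.57 and 2.58, a difference of 1.98, and Pirb, another inhibitory receptor, 5.89 and 4.64, a difference of 1.25. Inhibitory receptors of B cells were thus found at both ends of the list. Myeloid markers were also higher on the KO array, as given below, and their part in these values was not tested.

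B cell receptor signalling had 7 of 27 members at least 2-fold higher and 3 lower, and the median was 0.00, but under quantile normalization 3 were higher and 7 lower. The Src-family kinase Blk stood at -0.18 and 2.13, a difference of -2.31, and Nfatc1, a calcium-driven factor, at 1.53 and 2.94, with agreeing probes. The adaptor Blnk had levels of 8.32 and 6.73, a difference of 1.59. Syk, Btk and Plcg2, the core enzymes of the cascade, differed by -0.41, -0.58 and -0.19.

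Among B-lineage transcription factors, 11 of 27 were at least 2-fold lower and 3 higher, although the median was 0.04. Pou2f2, the Oct2 factor of mature B cells, had levels of -1.48 and 1.71, a difference of -3.19, while its coactivator Pou2af1 had 7.80 and 5.63, a difference of 2.17. Id3, an inhibitor of E proteins, stood at 0.87 and 3.44, a difference of -2.57. Bach2, which restrains plasma cell formation, had levels of 2.78 and 4.69, Spib 4.33 and 5.72, and Irf4 0.74 and 2.11, differences of -1.91, -1.38 and -1.37. Ebf1, a factor of B cell commitment, was the member that was lower with agreeing probes, at 1.45 and 2.79. Pax5, the other commitment factor, was low on both arrays, at -2.96 and -1.70. The list thus held a lower group and no common shift, and its median was -0.57 under cyclic loess and -0.92 with the median over probes.

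Follicular B cell genes had 4 of 24 members (16.7%) at least 2-fold higher and 5 (20.8%) lower, and the median was 0.08. Over all measured genes these values were 20%, 14.1% and 0.10, so as a list the follicular genes lay near all genes. Fcer2a, the low-affinity IgE receptor CD23, had a level of 2.19 on the KO array and 6.16 on the WT array, a difference of -3.97 from 1 probe, and -3.05 in the marrow. The tetraspanin Cd37 stood at 2.01 and 3.71, a difference of -1.69 with agreeing probes, and S1pr1, the receptor that guides exit into blood, at 2.57 and 3.85. Ms4a1, the surface protein CD20, went the other way, with levels of 8.15 and 6.98 and agreeing probes for a difference of 1.17. Its marrow difference was -0.94. Ccr7 differed by less than 2-fold, by 0.24. Medians this near 0 changed sign with the scaling: under cyclic loess they were -0.36 for the follicular list and -0.58 for the receptor list, and that of receptor signalling ran from -0.32 under cyclic loess to 0.41 with the array median.

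Marginal zone genes had 7 of 17 members at least 2-fold higher and 3 lower, and the median was 0.83. Cd36, a scavenger receptor of marginal zone B cells that macrophages also carry, had levels of 2.96 and 0.75, a difference of 2.21 with agreeing probes. Cd1d1, which presents lipids, stood at 5.81 and 3.57, Cd9 at 3.29 and 1.72, and the scavenging chemokine receptor Ackr3 at 2.81 and -0.08. Asb2, a ubiquitin ligase subunit, was lower at its probe on the chromosome of the gene, at -0.35 and 0.86, a difference of -1.22; its brightest probe is placed on another chromosome and is not used here. S1pr3 was lower at its brightest probe, by -1.87. Cr2, a member of this list and of the receptor list, differed by -0.23 at its brightest probe and by -2.18 at another. Markers of macrophages were higher on the same array, as given below, and their part in the marginal zone values was not tested. The list median was 0.16 under cyclic loess, and under quantile normalization 5 members were higher and 4 lower.

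**Figure D3:**
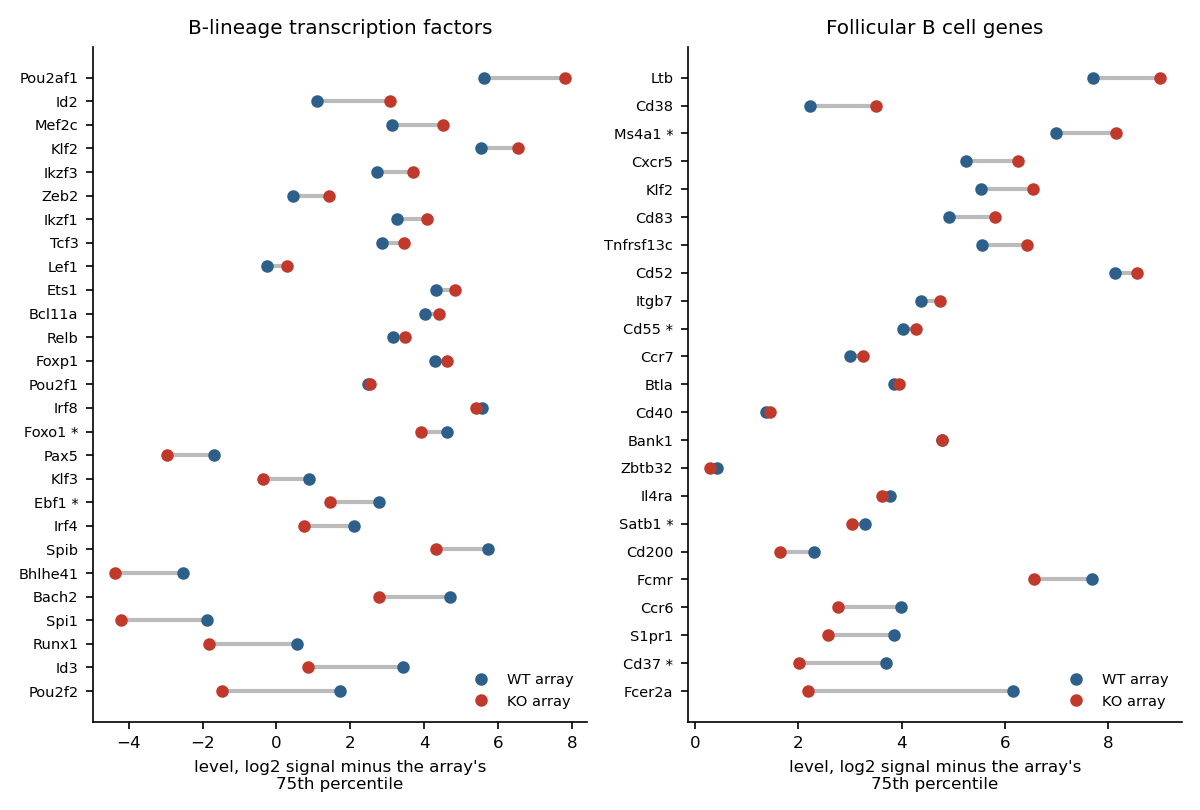
Level on the KO array (red) and the WT array (blue) of B-lineage transcription factors and follicular B cell genes (1 follicular gene is not drawn), log2 signal minus the array's 75th percentile, ordered by difference. Pou2f2 and Fcer2a, at the foot of the panels, read -1.48 against 1.71 and 2.19 against 6.16, and an asterisk marks agreeing probes.

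Plasma cell genes included 2 of the lower genes with agreeing probes. Slamf7, a surface receptor of plasma and natural killer cells, had levels of -2.16 and 1.08, a difference of -3.24, and Jchain, which joins IgM and IgA units, had 3.28 and 5.52, a difference of -2.24. Jchain differed by -2.54 in the marrow. Xbp1, the secretory factor, differed by -1.01, and Mzb1, a chaperone of antibody assembly, by 1.29. Of 15 measured members, 4 were at least 2-fold higher and 5 lower. In the transitional and immature list, 3 of 15 members were at least 2-fold higher and 4 lower. Vpreb1, a surrogate light chain of B cell precursors, stood at -0.73 and -2.54 and Dntt, which adds bases at receptor gene junctions, at -0.79 and -1.79. Cd93, a marker of recent emigrants, had levels of 0.34 and 1.92 and Sox4, a factor of early B cells, was at least 9.06-fold lower. The costimulatory ligand Cd86 of activated B cells stood at 2.65 and 0.44, a difference of 2.21 with agreeing probes.

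Regulators of G protein signalling, which switch off chemokine receptors, had 5 of 10 members at least 2-fold higher and 0 lower, and the median was 1.03. Rgs1 had a level of 3.73 on the KO array and -1.04 on the WT array, a difference of 4.77 from 1 probe. Rgs18, at 2.68 and 0.22, and Rgs2, at 5.71 and 3.73, had agreeing probes for differences of 2.46 and 1.98. The median was 0.70 under quantile and 0.54 under cyclic loess normalization. Of 24 homing receptors, 8 were at least 2-fold higher and 7 lower. The lipid receptor P2ry10 had levels of 5.65 and 2.85, and Cxcr4, which holds cells in the marrow and the splenic cords, 3.12 and 1.47 with agreeing probes. The receptors S1pr2 and S1pr4 were lower, S1pr2 by at least 8.04-fold.

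Immediate early genes, which are induced within minutes of stimulation or handling, had 11 of 23 members at least 2-fold higher and 0 lower, and the median was 0.996. Under quantile normalization 7 were higher, with a median of 0.60, and under cyclic loess 7, with a median of 0.71. Both medians stayed above that of all genes. Atf3 had levels of -1.11 and -3.65, a difference of 2.54, and Jun 0.93 and -1.18, a difference of 2.11. Klf6, at 4.50 and 2.87, and Junb, at 6.48 and 5.19, had agreeing probes for differences of 1.63 and 1.29. The phosphatase Dusp1, induced with them, stood at 2.06 and -0.92, a difference of 2.98, and the mRNA decay factor Zfp36 was lower with agreeing probes, at 2.38 and 4.31. Egr1 and Fosb, members of the same class, differed by 0.66 and 0.29.

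Markers of myeloid and red cells were higher on the KO array. Of 19 measured neutrophil markers, 11 were higher by 2-fold or more and 1 lower, and the median was 1.26. Their summed signal was 10.8 times that of the WT array, but S100a9 alone made up 72.4% of the KO sum, and without it the ratio was 6.27. Camp, an antimicrobial peptide of granules, had levels of 1.07 and -4.24, a difference of 5.31, Ltf, a granule iron binder, 0.61 and -2.83 with agreeing probes, and S100a9, an abundant calcium binder of neutrophils, 6.86 and 2.97. The receptors of mature neutrophils Cxcr2 and Csf3r differed by 0.44 and 0.27, and Mmp9 was at least 2.81-fold lower. In the marrow 19 of 20 measured members were at least 2-fold higher, with a median of 2.75.

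Genes of red pulp macrophages and monocytes had 14 of 27 members at least 2-fold higher and 1 lower. Their median was 1.06 and their summed signal 2.33 times that of the WT array. The same ratio was 2.29 for the proteasome, 2.19 for the respiratory chain and 1.41 for follicular B cell genes. A ratio of this size was thus not particular to these markers. Spic, the factor that specifies red pulp macrophages, stood at 4.77 and 2.66, a difference of 2.11, Vcam1 at 6.03 and 4.22, a difference of 1.81, and Fcgr1, a high-affinity antibody receptor, at 2.75 and 0.37, a difference of 2.38, all 3 with agreeing probes. Slc40a1, the iron exporter, had 5.81 and 3.24, Marco 3.52 and 0.91, and Cd163, the haemoglobin receptor, 2.17 and -0.29. The complement genes C1qa, C1qb and C1qc differed by 0.10, -0.65 and 1.06, and Csf1r, the growth factor receptor of macrophages, by -1.04 at its brightest probe. In the marrow the list's median was -0.24. The spleen median was 0.44 under quantile normalization and 0.53 under cyclic loess.

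Erythroid genes had 12 of 21 members at least 2-fold higher and 0 lower, and the median was 1.05. Tal1, a factor of red cell precursors, had levels of -1.55 and -4.21, a difference of 2.66, and the alpha globin genes Hba-a1 and Hba-a2, near-identical copies that share signal, 1.98 and 2.15. Alas2, the first enzyme of haem synthesis in red cells, stood at -0.24 and -1.79. Other cell types showed less. T cell markers had 2 of 22 members at least 2-fold higher and 3 lower, around a median of -0.05 that became 0.37 with the array median, and NK cell markers 3 and 3 of 16. Nkg7, a granule protein, was the NK gene lower with agreeing probes, at -1.11 and 0.95. Stromal markers had 2 of 20 higher and 5 lower, around a median of -0.15 that became 0.12 with the array median, against 1.53 in the marrow. In a bulk sample, a change in the number of cells of a type and in the RNA per cell cannot be told apart.

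**Figure D4:**
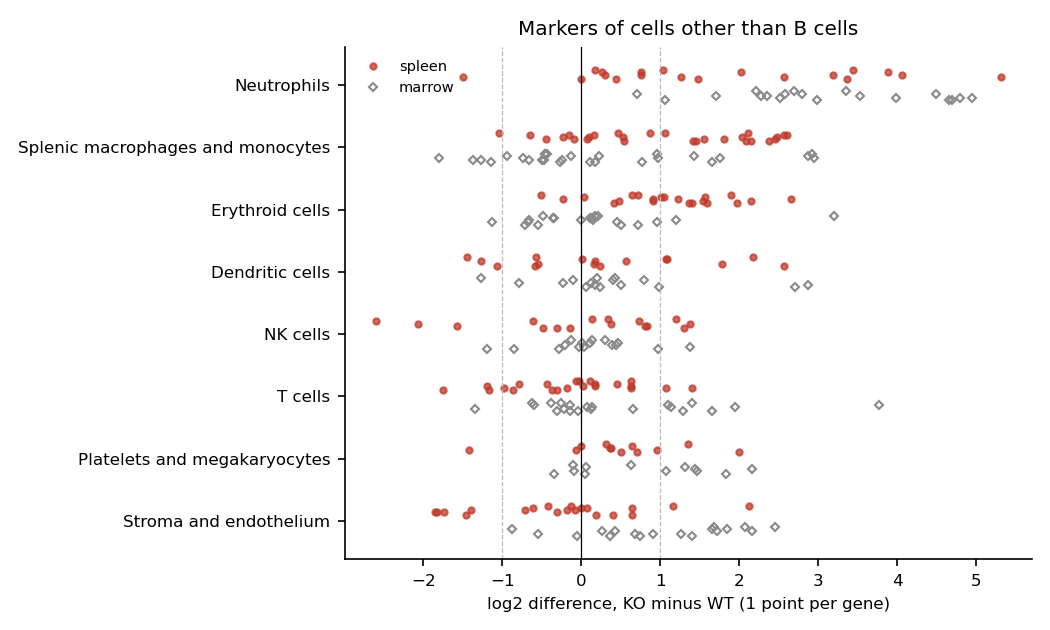
Difference KO minus WT of each measured marker of cells other than B cells, in the spleen (red) and, for the same genes, in the marrow (grey diamonds), on the log2 scale with dashed lines at 2-fold. Spleen neutrophil genes reach 5.31 (Camp), and marrow neutrophil genes are nearly all to the right of 0.

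Dendritic cell genes had 5 of 16 members at least 2-fold higher and 3 lower. Clec4a2, an inhibitory lectin of myeloid cells, was among the 15 highest agreeing genes, with levels of 3.52 and 0.95, a difference of 2.57, and 2.71 in the marrow. Cebpb, a myeloid and inflammatory transcription factor, was in the same group, with levels of 3.31 and 0.26, a difference of 3.05, and 2.35 in the marrow. Interferon-induced genes had 17 of 39 members at least 2-fold higher and 3 lower, and the median was 0.81. Ifi202b, whose expression is known to differ between inbred strains, had a level of 1.75 on the KO array and was not well above background on the WT array, so that it was at least 169-fold higher. It was below background on both marrow arrays. Ifit1bl1 had levels of 3.02 and -0.03 with agreeing probes, Ifi27l2a 7.81 and 6.37, and Ifi204 4.90 and 3.57. Irf7 and Oas3 were lower, by -2.01 and -2.00, and Isg15 differed by 0.24, so the list did not shift as a whole. Under quantile normalization 9 were higher and 4 lower.

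Housekeeping complexes were on the higher side with this scaling, and are given beside the brightest of the 4 classes of genes, where the median was 0.76. Under quantile and cyclic loess normalization the medians of the respiratory chain and the proteasome fell but stayed above that of all genes. The median of the ribosomal proteins fell below it. The respiratory chain and ATP synthase had 27 of 51 members at least 2-fold higher and 1 lower, and the median was 1.02. Cycs, cytochrome c, had levels of 5.76 and 3.41, a difference of 2.35 with agreeing probes, and Ndufa4, a subunit of the chain, 6.11 and 3.33. Cytosolic ribosomal proteins had 28 of 69 members at least 2-fold higher and 1 lower, and the median was 0.85, and Rpl22 had the highest difference with agreeing probes, at 8.30 and 6.41. The proteasome had 18 of 37 higher and 0 lower, and the median was 0.98 (quartiles 0.55 and 1.30), and Psmc6, an ATPase of its cap, stood at 6.27 and 3.95. These values depended on the normalization. Under quantile normalization 8 members of the respiratory chain, 0 ribosomal proteins and 4 proteasome genes were at least 2-fold higher, and 3, 4 and 0 lower, with medians of 0.24, 0.06 and 0.29; under cyclic loess they were 0.11 for the respiratory chain and for the proteasome, and that of the ribosomal proteins turned to -0.52, with 14 lower. In the marrow the same 3 lists had medians of 0.14, -0.12 and 0.10.

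Splicing genes showed how far the probe mattered. Of 30 members, 15 were at least 2-fold higher and 2 lower at the brightest probe, with a median of 1.09, but among the 8 with agreeing probes 0 were at least 2-fold higher, 2 were lower and the median was 0.00. U2af2, the factor that reads the polypyrimidine tract, had levels of -3.12 and 0.36, a difference of -3.48 with 2 probes, and Prpf8, the core of the spliceosome, 1.82 and 3.48. U2af1, the partner of U2af2, was higher at its brightest probe, at 4.66 and 2.28, with another probe at -0.8. With the median over probes the list's median was 0.44, and under quantile normalization 4 members were higher and 4 lower.

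**Figure D5:**
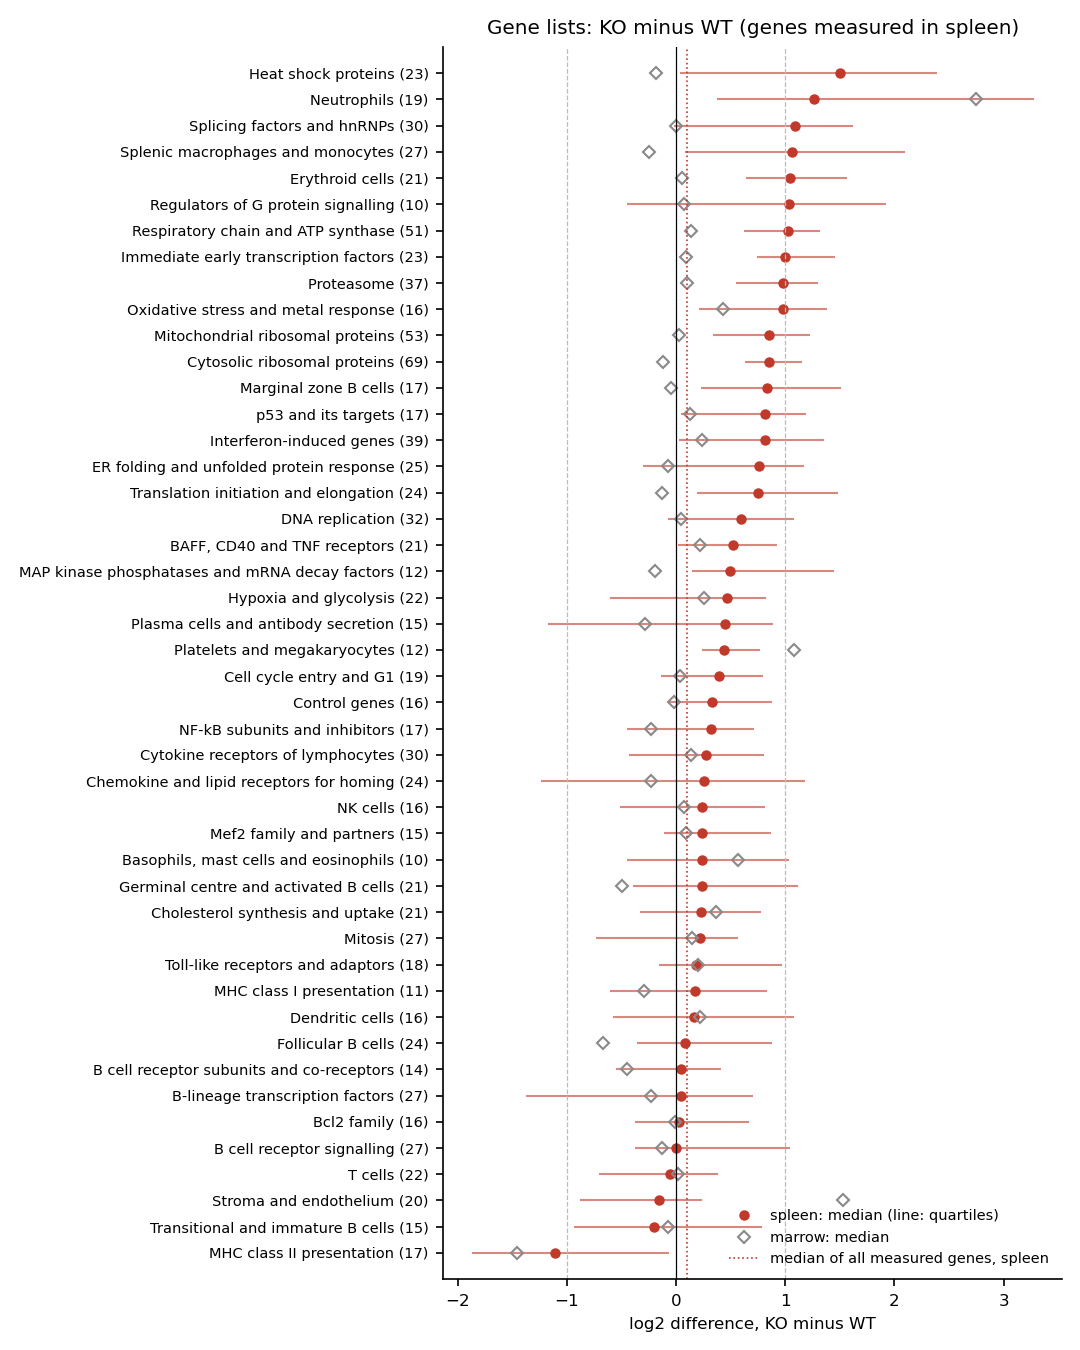
Median difference KO minus WT of each gene list except the Y-linked and Xist list, in the spleen (red, with quartiles) and in the marrow (grey diamonds), log2, with the number of genes measured in the spleen in brackets. Of the lists drawn, heat shock genes lie highest at 1.50 and MHC class II genes lowest at -1.11; the dotted line is the median of all measured genes, 0.10. Under cyclic loess the ribosomal protein median, 0.85 here, was -0.52, and medians near 0 also changed sign under some scalings.

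The 15 highest agreeing genes ranged from 5.71-fold to 153-fold and the 15 lowest from 5.36-fold to 32.6-fold. After Hspa1a the highest were Xlr, an X-linked lymphocyte gene, at 2.15 and -1.50, a difference of 3.65, and Chchd1, a mitochondrial ribosome component, at 7.99 and 4.43, a difference of 3.55. Sarnp and Rnpc3, proteins of mRNA export and minor splicing, differed by 2.89 and 2.80, the chromatin reader Psip1 by 2.74, and Galnt3, which starts O-glycosylation, by 2.57. Spaca1, Zfp81 and Cetn2, a centriole protein, completed the group at 2.72, 2.63 and 2.51. In the marrow, 5 of these 15 were at least 2-fold higher and 0 lower.

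The lowest agreeing gene was Hnrnpa0, an RNA-binding protein (probe at chr13:58228706-58228765, build mm9), at -1.97 on the KO array and 3.05 on the WT array, a difference of -5.02. Its probe has 75% GC, at the end of the range where probes read lower on the KO array, and the marrow difference was -0.90. Vars, the valyl-tRNA synthetase, had levels of 0.11 and 3.20, a difference of -3.09, and Uba1, the enzyme that starts ubiquitin conjugation, -0.32 and 2.49, a difference of -2.81. Gdpgp1 and Rnf122 differed by -3.08 and -2.97, Zfp445, a zinc finger protein of genomic imprinting, by -2.83, and Slc35a4 by -2.78. Arfgap1, Etnk1, Rexo1, Rogdi, Mier2 and Crebrf lay between -2.64 and -2.42. All 15 were below 0 in the marrow too, 4 of them at least 2-fold, with a median of -0.86. Over all 195 agreeing lower genes above background on both marrow arrays, 24 were at least 2-fold lower there and 5 higher, and the 381 agreeing higher genes had 31 on the higher side by as much and 0 on the lower. Over 18999 marrow genes, 7.73% were higher and 3.99% lower.

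Some genes had a brightest probe below background on 1 array and 2 or more probes that were all at least 2-fold apart in 1 direction, which leaves out genes with 1 probe such as Ifi202b. Among them Jhy had the largest bound in the higher direction: its level was 1.01 on the KO array, at least 101-fold above WT, and it differed by 7.66 in the marrow, where it was above background on both arrays. Arrdc4, Enah, an actin regulator, and Fosl2 were at least 5.75-fold, 4.30-fold and 3.41-fold higher. In the other direction, Rapgef4, an exchange factor driven by cAMP, was at least 37.7-fold lower, Gabpb2 at least 14.4-fold, and Retnla and Timd2 at least 3.86-fold and 3.72-fold. The Y-linked gene Ddx3y had a level of 0.30 on the WT array and was below background on the KO array, at least 37.8-fold lower, as was Eif2s3y, by at least 36.6-fold. In the marrow Ddx3y differed by -1.59 with a signal on both arrays. Xist, expressed from the inactive X, was above background on both spleen arrays. Y-linked signal thus moved with genotype in this pair, and the sex of the animals and their genotype cannot be told apart.

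The widest gaps between probes of a gene were 7.03 for Col6a4, 6.18 for Slc4a7, 5.90 for Cox17, 5.84 for Taf15, 5.72 for Mbnl1 and 5.61 for St6galnac2. Slc4a7, a bicarbonate transporter, gave from 0.28 to 6.46, and Mbnl1, a splicing regulator, from -4.68 to 1.03. Cox17, a copper chaperone of the respiratory chain, gave -4.98 at its brightest probe, which has 78.3% GC, and 0.92 at another. For such genes the value at 1 probe does not describe the transcript.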

How the data were processed

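B220 cells of the spleen of Mef2c KO and C57BL/6 mice were profiled on 1 array per genotype, per the labels, and the marrow pair was used beside them. The deposited scanner files hold linear intensity values. Per the file headers, they came from Agilent Feature Extraction 10.5.1.1, for probes placed on build mm9. The deposited matrix equalled those processed intensity values at all spots, with a largest difference of 0, and its column medians were 37.9 for spleen KO and 93.0 for spleen WT. No normalization between arrays is recorded. Groups came from the labels, and 0 columns belonged to no sample.

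Control spots were left out, with 75 and 85 outlier spots on the spleen KO and WT arrays, and 0 spots were saturated. After a log2 transform the 75th percentile was subtracted, and repeated spots were averaged. Their median SD was 0.0688 and 0.0639, which covers the spotting of 1 array only. Of 41174 probes, 25097 were named by accession through the RefSeq table of GRCm38.p6, 156 by another accession, 6233 and 1610 by a current or older symbol, and 8078 kept the file's name. No annotation of mm9 was used, so exons and UTRs are not given for probes.

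No test of a difference was run. A gene was called at 2-fold, on the probe with the highest mean over 4 arrays, and its probes agreed when they lay within 1 log2 unit. The text names the Mef2 genes, the 15 highest and lowest agreeing genes, the 5 largest bounds a direction among genes with 2 or more probes at least 2-fold apart that way, up to 3 members per list and direction, the 6 widest probe gaps, and other list members by value, and some list members are not reported here. The members of 47 gene lists were chosen with earlier results of these data known. The step that makes the calls was checked on simulated data with known changes. There the KO array was the WT array with little noise added, its background flags were copied, and all probes of a changed gene moved alike. Probe disagreement and effects of position or GC were not simulated, so the check covers the code and not the accuracy of calls on these arrays. Normalizations used limma 3.58.1 in R 4.3.3, with a normexp offset of 50. The alternatives were quantile, cyclic loess and median scaling, normexp, other background filters, other probe choices, a 3-fold threshold, a gap of 0.5, non-overlapping probes and, added after the data were seen, a correction for probe GC.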

Additional observations from a re-analysis of the deposited data

Results flagged for a closer look

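For 9 genes named by the rules for gene lists, among 228 named genes followed, the spleen and the marrow lay at least 2-fold apart between KO and WT in opposite directions. Over all measured genes, 34.2% were at least 2-fold apart in the spleen, and in the marrow 7.73% were higher and 3.99% lower. The share of all genes that lay in opposite directions was not counted, so the 9 are given as values only. The difference between the tissues was not tested, since each has 1 array per genotype. Rgs1, a regulator of chemokine receptor signalling, differed by 4.77 in the spleen and -1.80 in the marrow. Ackr3 differed by 2.88 and -1.10, and Ankrd37, a hypoxia-induced gene, by 1.78 and -1.16. Oas3, an interferon-induced enzyme, differed by -2.00 and 2.48, Tnf, the inflammatory cytokine, by -1.78 and 1.33, and Slc2a3, a glucose transporter, by -1.02 and 2.43. For Mmp9, a neutrophil protease, Dcn, a matrix protein of stroma, and S1pr2, a receptor that keeps B cells in follicles, the spleen value is a bound, since the probe was not well above background on the KO array: -1.49, -1.82 and -3.01, against marrow differences of 3.99, 2.07 and 1.05. None of the 9 had over 1 probe well above background on both spleen arrays.

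The spike-in control probes, which no comparison used, differed by 2.33 between the spleen KO and WT arrays after scaling to the 75th percentile, with 8 probes from 1.56 to 2.58, and by 0.13 between the marrow arrays. Scaling to them would lower every spleen difference by that amount.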

How the results depend on the processing

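No paired analysis was possible because each group holds 1 array, and no array could be left out. The counts of 3889 higher and 2747 lower genes became 6460 and 1589 with scaling by the array median, which moved the share of higher calls from 58.6% to 80.3%, and the counts of agreeing genes became 718 and 91. The lower count was 1339 with normexp, where 70.4% of calls were higher. At 3-fold the counts were 1490 and 1265, and 107 and 70 for agreeing genes. Under quantile normalization, medians were 0.70 for regulators of G protein signalling, 0.70 for heat shock, 0.24 for the respiratory chain, 0.29 for splicing and 0.44 for macrophages. Under cyclic loess they were 0.54, 0.58, 0.11, 0.12 and 0.53, with 0.94 for neutrophils. Under normexp the respiratory chain had 0.95, splicing 0.98 and erythroid genes 0.96, and MHC class II had -0.69 with the array median. With the median over probes, heat shock had 0.87, the respiratory chain 0.99, splicing 0.44 and macrophages 0.87. With the GC correction, MHC class II had -0.82, regulators of G protein signalling 0.99, the respiratory chain 0.93, splicing 0.90 and macrophages 0.83. The Y-linked and Xist list had a median of -3.43, and of 0.41 where probes had to be above background on both arrays, since that left Xist. Relative to the median of all genes, heat shock ranged from 0.55 to 1.43 and MHC class II from -1.79 to -0.96 over the main setting and 9 alternatives. Of 228 named genes over 9 alternatives, 1853 values kept direction and side of 2-fold, 165 fell below it and 10 changed sign: Ltb (-0.0691), Rpl11 (-0.19) and Rps25 (-0.0757) under cyclic loess, Cox17 under normexp (0.87) and with the brightest probe of the spleen arrays (0.92), and Mbnl1 (-1.30), Mef2a (-1.43), Mef2d (-0.74), Taf15 (-0.78) and Vim (-0.24) with the median over probes. The cause of these shifts was not tested. Genes near background on the KO array, where fewer spots were detected, have bounds only.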

Other observations

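Genes of the oxidative stress response had 8 of 16 members at least 2-fold higher on the spleen KO array and 0 lower, around a median of 0.98, but under quantile normalization 1 was higher and 1 lower, with a median of 0.46, and under cyclic loess 1 and 2, with a median of 0.36. Srxn1, which repairs peroxiredoxins, differed by 2.01, Hmox1, the haem-degrading enzyme that red pulp macrophages also express, by 1.56, and Txn1, thioredoxin, by 1.41. The metallothionein Mt2 differed by 0.46. Protein folding in the endoplasmic reticulum had 10 of 25 members on the higher side by 2-fold or more and 2 on the lower, around a median of 0.76, but under quantile normalization 1 was higher and 4 lower (median 0.25), and under cyclic loess 1 and 5 (median 0.19). Hsp90b1, its Hsp90, differed by 1.51 with agreeing probes and Hspa5, its Hsp70, by 1.59, while the stress factors Atf4 and Ddit3 differed by -0.90 and 0.29.

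In the list for cell cycle entry, 3 of 19 members were at least 2-fold higher and 4 lower, around a median of 0.40. Ccnd3, a D-type cyclin of B cells, had levels of 0.07 on the KO array and 2.67 on the WT array, a difference of -2.59. Its kinase Cdk4 differed by -2.03. Ccne2 went the other way, with levels of -2.56 on the KO array and -4.01 on the WT array. Its agreeing probes gave differences of 1.45 and 2.08. Mitosis had 3 of 27 members at least 2-fold higher and 5 lower, around a median of 0.22 that became -0.32 under cyclic loess, and Mki67, the proliferation marker, differed by -0.31. Of 32 replication genes, 9 were higher and 2 lower, against 3 and 3 under quantile normalization and 3 and 4 under cyclic loess. In the Bcl2 family, 4 of 16 members were at least 2-fold higher and 2 lower. Pmaip1, a death-promoting member, differed by 2.68 and Bcl2l1, a survival member, by -1.92. Bcl2 and Mcl1, other survival members, differed by -0.41 and 0.28 at their brightest probes. The probes of each lay within the limit for agreement, but those of Bcl2 ran from -0.41 to 0.57, so its sign depended on the probe. In glycolysis, Eno1 differed by -3.53 and Ldha by 1.47, and 5 of 22 members were at least 2-fold higher and 3 lower, against 3 and 4 under quantile normalization. In the sterol pathway, Insig1, Nsdhl and Mvk had agreeing probes and differences of -2.14, -1.34 and -1.25.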
